A study of Mus musculus with 12 samples.

Results

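The ligands and receptors of the epidermal growth factor (EGF) family were followed in C2C12 cells, a mouse myoblast line that fuses into myotubes when serum is withdrawn. The members were all probes whose target name in the deposited table was, in any case of letters, AREG, EREG, HBEGF, BTC, TGFA, EGFR, ERBB2, ERBB3 or ERRFI1, which gave 13 probes of 9 genes among the 45281 probes of the array. The genes were chosen by measured values of these arrays, taken here to be the Areg levels of vehicle-treated cells over time, which had stood out in earlier results, so the time course of the vehicle-treated cells is given here as a description, without tests.

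RNA was measured on 12 Illumina MouseWG-6 bead arrays, 2 for each of 6 groups. All groups were C2C12 cells that received either the solvent dimethyl sulphoxide (DMSO) or 10 uM embelin, a plant benzoquinone known as an inhibitor of the apoptosis inhibitor XIAP. A DMSO group and an embelin group were kept in growth medium, which held 20% fetal bovine serum. The other groups were collected after 24 h or 48 h of treatment in differentiation medium, which held 2% horse serum. For the growth-medium groups the labels give 0 h in one field and 24 h of treatment in another, so their exposure time is uncertain. Replicates carry the numbers 1 and 2, and no label calls them separate cultures, so each p-value rests on a spread between arrays that may be technical.

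EGF-family ligands are made as membrane-bound precursors and are released by metalloproteases at the cell surface. Amphiregulin, transforming growth factor alpha, heparin-binding EGF-like growth factor (HB-EGF), betacellulin and epiregulin bind the EGF receptor, and some of them also bind ERBB4. The bound receptor pairs with itself or with ERBB2, which has no known ligand, or ERBB3, which has little kinase activity of its own, and passes the signal to the RAS and ERK kinase cascade. Serum growth factors acting through this cascade are known to keep myoblasts proliferating and to delay their fusion. Errfi1, also called Mig6, encodes an inhibitor that binds the activated kinase domain of the receptor, and its transcript is induced by EGF receptor signalling.

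The stretches of DNA before the start sites are shown for 3 genes. They are the ligand genes Areg and Btc, each of which had its own highest signals in growth medium, and Errfi1, which differed most between embelin and DMSO. Each is the 250 bases before the RefSeq start on GRCm38.p6, given 5′ to 3′ on the strand of the gene. The windows are chr5:91139349-91139598 on the plus strand for Areg, chr5:91402995-91403244 on the minus strand for Btc and chr4:150854820-150855069 on the plus strand for the downstream of the 2 listed Errfi1 starts. Capitals mark matches on either strand to the motifs searched.
Areg: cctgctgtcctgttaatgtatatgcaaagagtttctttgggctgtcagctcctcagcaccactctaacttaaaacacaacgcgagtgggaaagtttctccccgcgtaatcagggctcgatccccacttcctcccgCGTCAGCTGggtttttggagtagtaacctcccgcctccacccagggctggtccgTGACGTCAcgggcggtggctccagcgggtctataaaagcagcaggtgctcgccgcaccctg
Btc: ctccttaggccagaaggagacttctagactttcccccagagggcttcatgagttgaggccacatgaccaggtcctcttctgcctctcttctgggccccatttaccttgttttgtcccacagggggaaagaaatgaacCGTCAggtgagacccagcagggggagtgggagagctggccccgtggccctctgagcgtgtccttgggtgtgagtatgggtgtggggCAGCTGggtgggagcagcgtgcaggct
Errfi1: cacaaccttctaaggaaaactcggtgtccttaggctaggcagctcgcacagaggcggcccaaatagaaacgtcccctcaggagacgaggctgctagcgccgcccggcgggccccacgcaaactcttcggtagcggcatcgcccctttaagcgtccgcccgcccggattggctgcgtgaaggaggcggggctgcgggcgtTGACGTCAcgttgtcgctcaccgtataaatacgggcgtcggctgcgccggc

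The motifs searched were the AP-1 site TGANTCA, the cyclic AMP response element TGACGTCA, its core TGACG, and the E-box CAGCTG, on both strands. Areg held the full element TGACGTCA beginning 61 bases before its start, and Errfi1 held it 51 bases before its downstream start. Among 32851 windows of this length in the RefSeq table, 1.55% held that element, 17.8% held TGACG, 13% held CAGCTG and 6.75% held the AP-1 site. TGACG lies inside TGACGTCA on both strands, so each full element also counted as core matches, at 61 and 58 bases in Areg and at 51 and 48 bases in Errfi1. Areg held another core 115 bases before the start, which overlapped a CAGCTG at 112 bases. Btc held a core at 113 bases and a CAGCTG at 27 bases. Of the 9 genes, 6 were searched. Hbegf was left out of the search, and no window was found for Ereg and Erbb3. The windows of Tgfa, Egfr and the upstream Errfi1 start held no match, and that of Erbb2 held 1 core, at 171 bases. These matches describe the letters and do not show that a factor binds there. In the RefSeq order of chromosome 5, the ligand genes Epgn, Ereg, Areg and Btc followed each other with 0 other coding genes between them.

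Between 15031 and 16314 probes per array were detected above the negative controls (detection p under 0.01), and the 16981 probes for which this held on both arrays of some group were tested. Of the 13 member probes, 9 passed this filter. Embelin replicate 2 in growth medium stood apart on the first principal component (-57.9, against -83.5 to -83 on the other arrays in growth medium); without it no member was called between embelin and DMSO cells in growth medium, and the main member values that rest on it are given below without it too. Of 5 probes for myoblast markers, 4 were detected in every group, and that of Myf5 passed the filter in none. The summed signal of the 5 was 4116.9 to 4808.7 in DMSO cells in growth medium and 14579.5 to 15594.1 at 48 h. In embelin cells it was 4256.2 to 6048.4 and 13187.7 to 14906.4, so this list did not fall on differentiation. The summed signal of 9 probes for myotube genes was 1020.9 to 1119.6 in DMSO cells in growth medium and 38786.8 to 42471.6 after 48 h. In embelin cells it was 994.9 to 2690.3 in growth medium, the baseline of the embelin time comparisons, and 13886.6 to 18853.1 at 48 h. In these bulk samples fewer cells of a type and less RNA per cell cannot be told apart. None of the probes for macrophage (9), endothelial (6) and adipocyte (3) markers was detected on both arrays of any group. Of the epithelial markers, Epcam, Cdh1 and Krt18 were not above background in any group, while Krt8 or Krt14 probes were in some.

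Areg, which encodes amphiregulin, gave a high signal in growth medium only. In DMSO cells in growth medium its signals were 3398.1 and 3545.5, and in embelin cells 3317 and 2720. After 24 h in differentiation medium the signals were 73.9 and 133.7 in DMSO cells and 114.8 and 202.4 in embelin cells, and the 73.9 was not above background. At 48 h they were 95.1 and 103.4 in DMSO cells and 156.4 and 160.8 in embelin cells. All 4 arrays in growth medium lay far above all 8 in differentiation medium, with no overlap.

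In normalized log2 units the mean Areg level ran from 11.50 ± 0.05 (SD, n = 2) in DMSO cells in growth medium, through 11.30 ± 0.15 in embelin cells there, to 6.93 ± 0.08 and 6.85 ± 0.85 in embelin cells at 48 h and 24 h, and 6.08 ± 1.03 and 6.08 ± 0.04 in DMSO cells at 24 h and 48 h. The spread at 24 h was wide enough that the order of the 4 groups in differentiation medium was not resolved. In embelin cells Areg fell by 4.45 log2 units between growth medium and 24 h (SE 0.42, limma adjusted p = 1.35e-05), a 21.8-fold difference. Between growth medium and 48 h it fell by 4.38 (adjusted p = 7.36e-06), 20.8-fold. The first value was -5.05 without embelin replicate 2 at 24 h and -3.85 without replicate 1, past the threshold in both cases. Without embelin replicate 2 in growth medium the 2 values were -4.56 and -4.48 (adjusted p = 7.91e-05 and 6.52e-05). In DMSO cells the corresponding differences were -5.42 (SE 0.42) at both times. They are given without a test because they were taken to have led to the choice of the genes. Which values led to that choice is not known for sure, so the Areg tests in embelin cells may not be independent of it.

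Embelin did not move Areg past the threshold at any stage. The log2 difference between embelin and DMSO cells was -0.20 in growth medium (SE 0.42, adjusted p = 0.998), or -0.09 without embelin replicate 2 and -0.31 without replicate 1, and 0.77 at 24 h (adjusted p = 0.574). At 48 h it was 0.85 (SE 0.42, adjusted p = 0.142), and both embelin arrays lay above both DMSO arrays. This last value depended on the estimate of spread, which took in the wide DMSO and embelin pairs at 24 h. With the 4 arrays at 48 h alone its adjusted p was 0.00305, and without either DMSO array at 24 h it was 0.0499.

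Btc encodes betacellulin, a ligand of the EGF receptor and ERBB4. Its signals in growth medium were 129.5 and 136.9 in DMSO cells and 160.6 and 126.9 in embelin cells. On the 8 arrays in differentiation medium they lay between 54.6 and 74.9, and none of these was above background. The groups did not overlap between media, and in differentiation medium the probe gave only an upper bound. Where a group was below background on both arrays, a fold was computed against the higher of its own level and the lowest level detected on the array. Btc entered the tests through the growth-medium groups, where it is high, so its difference between media was favoured by the filter. So, as a description, Btc in embelin cells was at least 2.28-fold lower at 24 h and at least 2.26-fold lower at 48 h than in growth medium. The limma fit gave differences of -1.45 and -1.87 log2 units (adjusted p = 2.42e-05 and 2.37e-06). These p-values belong to the fitted differences and not to the bounds, and they are not read as a test here. Without embelin replicate 2 in growth medium the fitted differences were -1.71 and -2.13. In DMSO cells the bounds, untested here, were at least 1.99-fold and at least 2.18-fold. Between embelin and DMSO cells in growth medium the difference was 0.11 (SE 0.15, adjusted p = 0.992), or 0.37 without embelin replicate 2 and -0.15 without replicate 1.

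Hbegf, which encodes HB-EGF, showed another course. Its signals were 177.2 and 203.2 in DMSO cells and 183 and 183.5 in embelin cells in growth medium. At 24 h they were 147.4 and 135.8 with DMSO and 181 and 156.8 with embelin. At 48 h they reached 342.4 and 367.5 with DMSO and 347.7 and 315.1 with embelin. The 4 arrays at 48 h lay above the other 8 without overlap. In embelin cells the level rose by 1.23 log2 units from growth medium to 48 h (SE 0.10, adjusted p = 2.87e-06), which was 2.35-fold, and by 1.19 from 24 h to 48 h (adjusted p = 2.04e-05). From growth medium to 24 h its difference was 0.04 (adjusted p = 0.741). Without embelin replicate 2 in growth medium the differences from growth medium were 0.04 to 24 h and 1.23 to 48 h. In DMSO cells the difference from growth medium to 48 h was 1.44 (SE 0.10), untested. Embelin minus DMSO was -0.06 in growth medium, 0.20 at 24 h and -0.26 at 48 h (adjusted p = 0.998, 0.55 and 0.0719), none of them called.

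**Figure D1:**
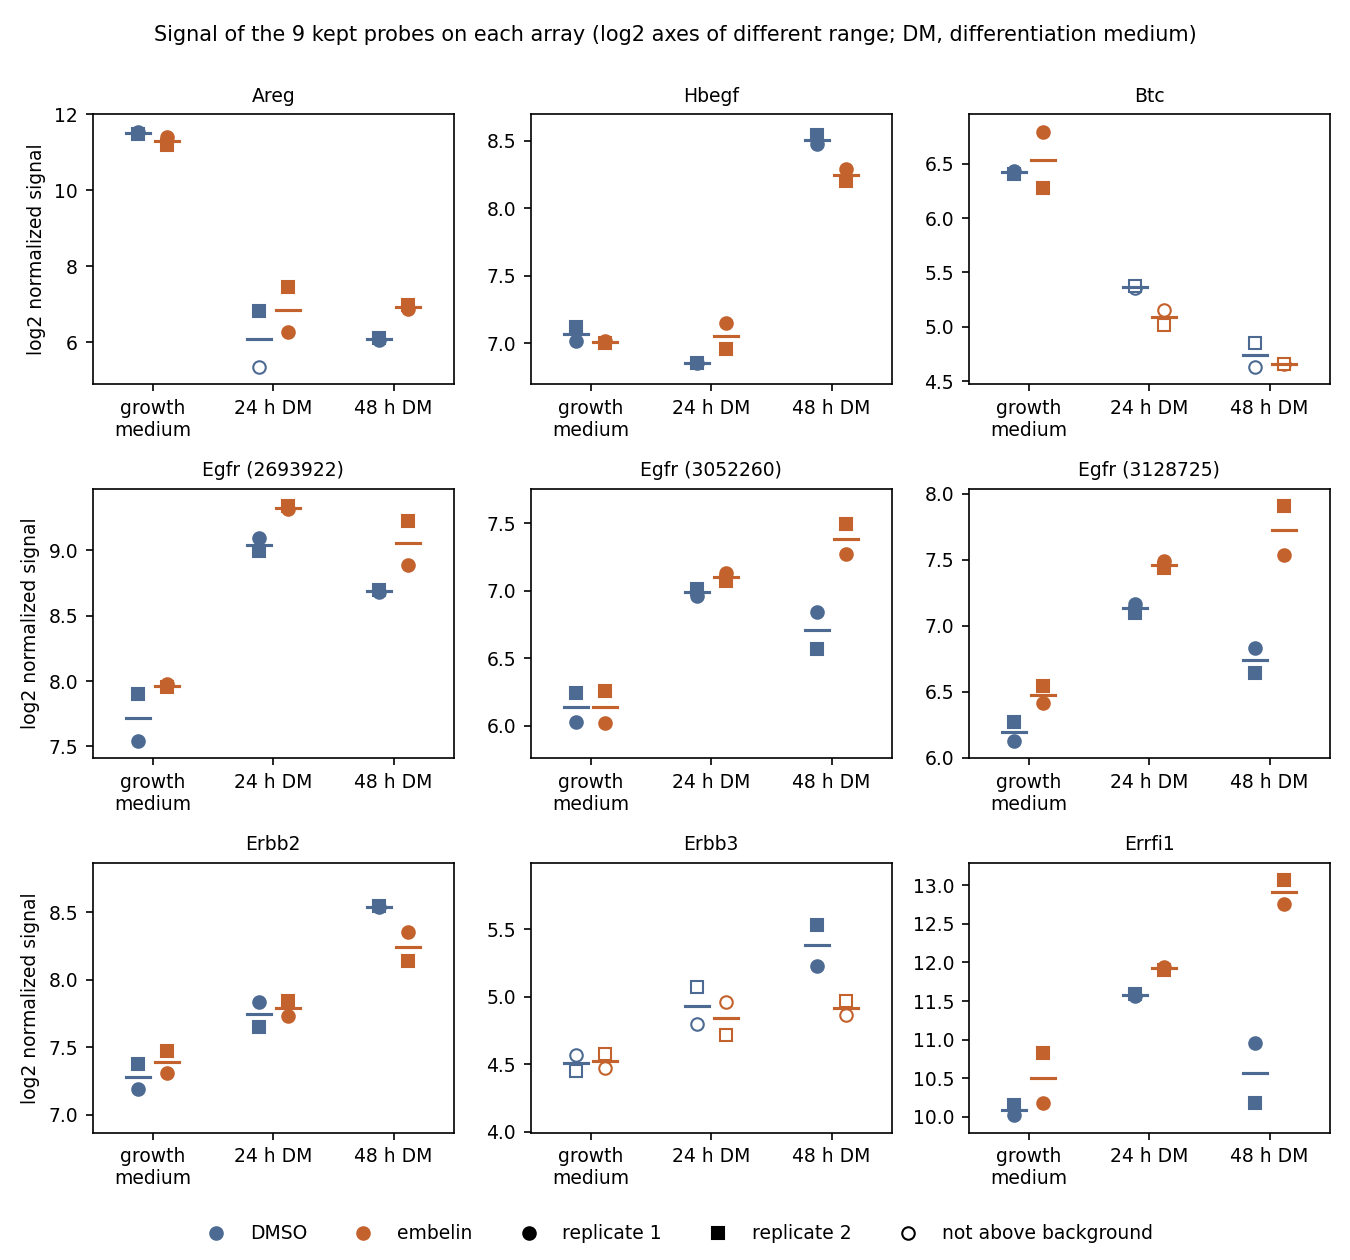
Normalized log2 signal of the 9 tested probes on each array, by stage (growth medium, 24 h and 48 h in differentiation medium, DM), with DMSO in blue and embelin in orange; circles are replicate 1, squares replicate 2, lines group means, and open symbols arrays where the probe was not above background. The panels have log2 axes of different range: Areg drops from above 11 in growth medium to about 5 to 7.5 afterwards, whereas Errfi1 reaches its highest level, 12.9 on average, with embelin at 48 h.

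Epiregulin and transforming growth factor alpha were not detected. The 2 Ereg probes gave signals of 45.7 to 65.6 and 44.9 to 71.1 over the 12 arrays, and the Tgfa probe gave 48.4 to 72.1. None of these values was above background on any array, where the lowest detected signal was 69 to 91.9. Another Egfr probe, ILMN_2614432, gave 57.7 to 80.8 and was detected on 2 arrays, DMSO replicate 1 at 24 h (77.4) and embelin replicate 2 at 24 h (80.8). It was left out of the tests, while the other Egfr probes were detected on every array. The Erbb3 probe lay just inside the filter, through the DMSO group at 48 h alone.

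**Figure D2:**
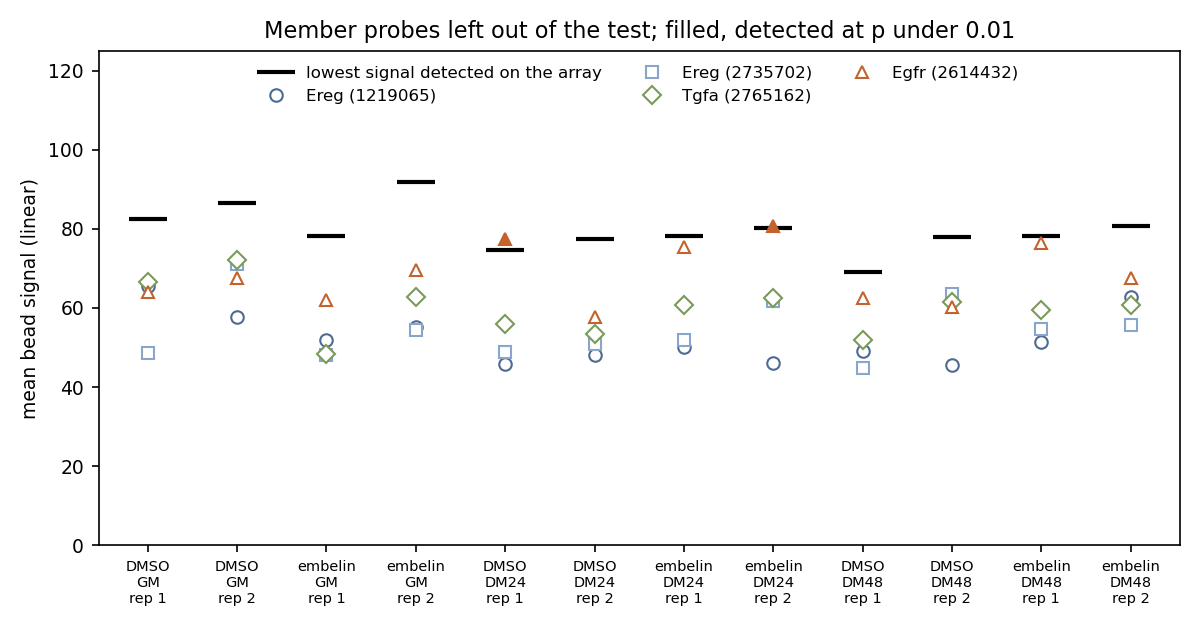
Mean bead signal on a linear axis of the 4 member probes left out of the tests (2 for Ereg, 1 for Tgfa, 1 for Egfr) on each of the 12 arrays; filled symbols were detected, and black bars mark the lowest signal detected on each array. The Ereg and Tgfa probes are open on all arrays, and the Egfr probe is filled on 2.

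Egfr, the receptor for all of these ligands, was measured by 3 probes detected on all 12 arrays. The brightest, ILMN_2693922, gave 242 and 326.7 in DMSO cells and 333.7 and 317.1 in embelin cells in growth medium. At 24 h it gave 543.2 and 452 with DMSO and 650.9 and 614.4 with embelin, and at 48 h it gave 388.4 and 402.3 with DMSO and 509.5 and 602.4 with embelin. All 8 arrays in differentiation medium lay above all 4 in growth medium, and the embelin pair lay above the DMSO pair at both times. Over the 12 arrays the 3 probes followed one another with Pearson's r of 0.910 to 0.967, a description in which all values share the same arrays.

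The dimmer probes separated the treatments at 48 h more widely. ILMN_3052260 gave 135.6 and 125.3 with DMSO at 48 h and 193 and 208.9 with embelin. ILMN_3128725 gave 135 and 129.6 with DMSO and 223 and 264.6 with embelin. Neither pair of groups overlapped. At 48 h embelin minus DMSO was 0.68 log2 units for ILMN_3052260 (SE 0.14, adjusted p = 0.00315), 1.60-fold, and 0.98 for ILMN_3128725 (SE 0.13, adjusted p = 0.000276), 1.98-fold. For ILMN_2693922 it was 0.37 (SE 0.14, adjusted p = 0.0617), so the 3 probes differed in size and in call while all lay on the same side. The call of ILMN_2693922 changed in 9 of 24 other settings, with adjusted p down to 0.0292 when embelin replicate 1 at 48 h was left out.

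In growth medium embelin minus DMSO was 0.24 for ILMN_2693922, 0.00 for ILMN_3052260 and 0.28 for ILMN_3128725, and at 24 h it was 0.28, 0.12 and 0.33 for the same probes in this order, none of them called. Without embelin replicate 2 the growth-medium value of ILMN_3052260 was -0.11, and without replicate 1 it was 0.12. At 24 h the smallest adjusted p of any member, 0.429, was that of ILMN_3128725. For ILMN_2693922 the embelin effect at 48 h exceeded that in growth medium by 0.12 and that at 24 h by 0.08. Neither was called (adjusted p = 0.704 and 0.838). The embelin effect at 48 h exceeded that in growth medium by 0.67 (SE 0.19, adjusted p = 0.0312) for ILMN_3052260 and by 0.70 (SE 0.19, adjusted p = 0.0235) for ILMN_3128725. Both of these calls were lost without DMSO replicate 2 in growth medium (adjusted p = 0.113 and 0.0846), embelin replicate 1 in growth medium (0.0833 and 0.0577), DMSO replicate 2 at 48 h (0.115 and 0.0874) or embelin replicate 2 at 48 h (0.118 and 0.0909). The effect at 48 h exceeded that at 24 h by 0.65 for ILMN_3128725 (adjusted p = 0.0475), a call lost in 16 of 23 other settings, such as the replicate block (0.0524). It was lost without 8 of the 12 arrays, each left out alone (both DMSO arrays in growth medium, all arrays at 24 h and replicate 2 of each treatment at 48 h), with adjusted p up to 0.171.

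Egfr rose on differentiation in embelin cells by every tested probe. From growth medium to 24 h the log2 differences of ILMN_2693922, ILMN_3052260 and ILMN_3128725 were 1.36, 0.97 and 0.98 (adjusted p = 2e-05, 0.000159 and 0.000121), and from growth medium to 48 h they were 1.09, 1.24 and 1.24 (adjusted p = 5.96e-05, 1.95e-05 and 1.64e-05). Without embelin replicate 2 in growth medium they were 1.35, 1.08 and 1.05 to 24 h and 1.08, 1.36 and 1.31 to 48 h, all called. Between 24 h and 48 h the values were -0.27, 0.28 and 0.26, none called (adjusted p = 0.184, 0.166 and 0.184). In DMSO cells the untested differences were 1.32, 0.85 and 0.93 at 24 h and 0.97, 0.57 and 0.54 at 48 h.

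Erbb2 encodes the ligandless partner receptor, and its transcript was detected on every array. Its signals were 196.4 and 237.8 with DMSO and 218.3 and 240.1 with embelin in growth medium. At 24 h they were 254.2 and 205.7 with DMSO and 249 and 250.2 with embelin, and at 48 h they were 356.7 and 367.8 with DMSO and 361.9 and 302.6 with embelin. The raw signals of the treatments overlapped at every stage, while in normalized values both embelin arrays at 48 h lay below both DMSO arrays. All arrays at 48 h lay above all earlier ones. In embelin cells the level rose by 0.85 log2 units from growth medium to 48 h (SE 0.12, adjusted p = 0.000135), 1.81-fold. Smaller differences of 0.40 from growth medium to 24 h (adjusted p = 0.0175) and 0.45 from 24 h to 48 h (adjusted p = 0.0205) were also called. The former was lost under median scaling of the arrays (0.20, adjusted p = 0.299), under 75th percentile scaling (0.0519) and on the authors' series matrix values (0.065). It was also lost without embelin replicate 1 in growth medium (adjusted p = 0.101) and without embelin replicate 2 at 24 h (0.0994). The latter was lost under median scaling (0.0591), without either embelin array at 24 h (0.117 and 0.0561) and without embelin replicate 1 at 48 h (0.143). Without embelin replicate 2 in growth medium the differences from growth medium in embelin cells were 0.48 to 24 h and 0.93 to 48 h. In DMSO cells the untested difference from growth medium to 48 h was 1.26. Embelin minus DMSO at 48 h was -0.30 (SE 0.12, adjusted p = 0.0825).

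Erbb3, the neuregulin receptor with weak kinase activity, was near background throughout. Its signals were 56.8 and 57.2 with DMSO and 50.7 and 65.3 with embelin in growth medium, and 59.4 and 68.2 with DMSO and 67 and 65 with embelin at 24 h. At 48 h they were 69.1 and 82.4 with DMSO, both above background, and 65.2 and 70.2 with embelin, both below it. The raw signals of these last groups overlapped, while the normalized values did not. Erbb3 entered the tests only through the DMSO group at 48 h, where it is high, so the comparison of embelin with that group was conditioned on its outcome and is given as a description. The bound was at least 1.02-fold lower with embelin, and the fit gave an adjusted p of 0.0265. In several settings it missed the threshold, such as no background correction (adjusted p = 0.0779), and without DMSO replicate 2 (0.194), embelin replicate 1 (0.122) or embelin replicate 2 at 48 h (0.0675). In embelin cells the probe also passed the test between growth medium and 48 h (adjusted p = 0.0332) with both groups below background, so no fold is given. That second call was lost without any 1 of the 4 arrays compared, with adjusted p of 0.0507 to 0.146.

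Errfi1, the feedback inhibitor, carried the largest embelin difference among the tested members. Its signals in growth medium were 1220.1 and 1466.5 with DMSO and 1465.2 and 2094.6 with embelin. At 24 h they were 2762.4 and 2647.4 with DMSO and 3785.3 and 3476.1 with embelin. At 48 h they were 1778.9 and 1057.2 with DMSO and 6401.6 and 7562.5 with embelin. The treatments touched in growth medium, the embelin pair lay somewhat above the DMSO pair at 24 h, and at 48 h both embelin arrays lay far above both DMSO arrays. The higher DMSO value at 48 h came from 22 beads, with a standard error of 241 over the beads, against 41.5 over 40 beads on the other DMSO array.

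At 48 h Errfi1 was 2.34 log2 units higher with embelin (SE 0.25, adjusted p = 5.29e-05), 5.05-fold. In growth medium the difference was 0.41 (adjusted p = 0.939), or 0.09 without embelin replicate 2 and 0.74 without replicate 1, and at 24 h it was 0.35 (adjusted p = 0.679). The effect at 48 h exceeded that in growth medium by 1.92 (SE 0.35, adjusted p = 0.00338) and that at 24 h by 1.99 (SE 0.35, adjusted p = 0.00476). These 3 calls at 48 h were kept in all 24 other settings, and the embelin difference ran from 1.95 to 2.72 over them. Myotube markers moved at the same time: 7 of their 9 probes were lower with embelin at 48 h, against 18.3% of all probes. Their part in the Errfi1 difference was not tested.

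The Errfi1 level ordered the groups from 12.91 ± 0.22 (SD, n = 2) in embelin cells at 48 h, through 11.93 ± 0.03 in embelin cells and 11.58 ± 0.02 in DMSO cells at 24 h, to 10.57 ± 0.55 in DMSO cells at 48 h, 10.50 ± 0.46 in embelin cells and 10.09 ± 0.10 in DMSO cells in growth medium. The last 3 groups did not separate beyond their spread. In embelin cells Errfi1 rose by 1.42 from growth medium to 24 h (adjusted p = 0.000627) and by 2.41 from growth medium to 48 h (SE 0.25, adjusted p = 1.18e-05), 5.30-fold. Without embelin replicate 2 in growth medium these were 1.75 and 2.73 (adjusted p = 0.000338 and 1.32e-05). Between 24 h and 48 h it rose by 0.99 (adjusted p = 0.0147), a call lost without the detection filter (0.0521). That call was also lost without either embelin array at 24 h (0.0609 and 0.0736) or embelin replicate 2 at 48 h (0.102). In DMSO cells the untested differences were 1.49 from growth medium to 24 h and -1.01 from 24 h to 48 h.

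**Figure D3:**
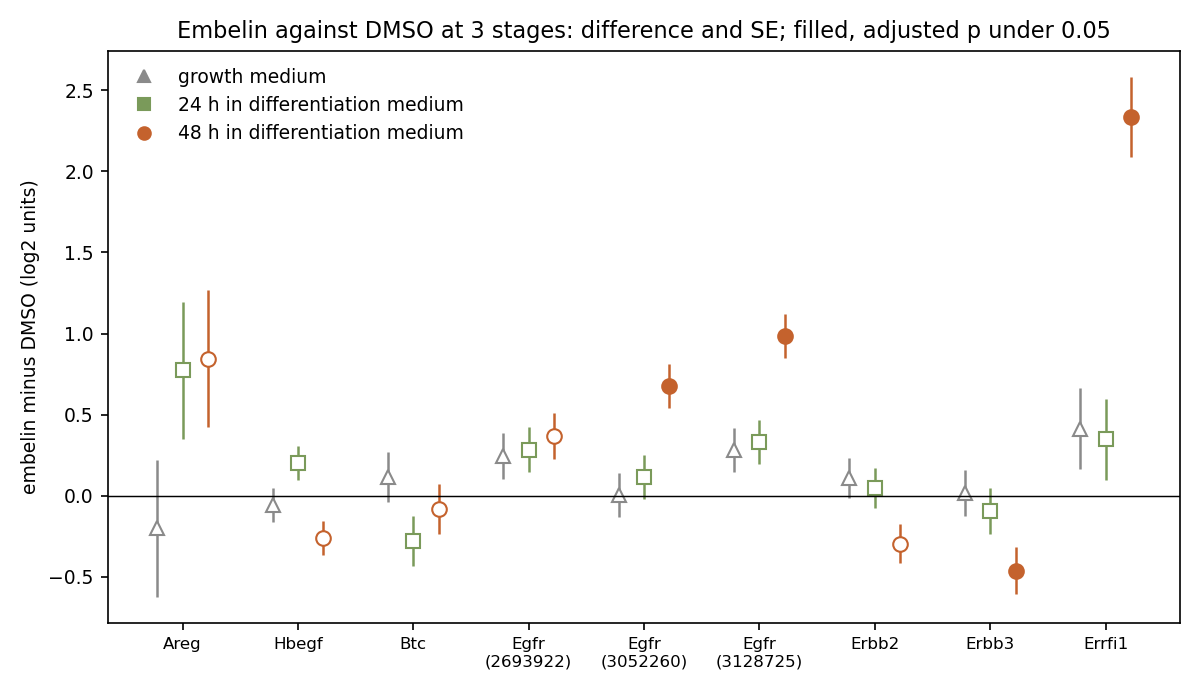
Difference between embelin and DMSO cells in log2 units for each of the 9 tested probes at 3 stages; bars are the standard errors of the fit (n = 2 arrays per group) and filled symbols passed an adjusted p under 0.05. Only points at 48 h are filled: Errfi1 at 2.34, 2 Egfr probes at 0.98 and 0.68, and Erbb3, whose point is a fitted value against a group below background and is to be read only as a bound of 1.02-fold.

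Set against the whole array, the members' counts read as follows. In growth medium 0 of 9 member probes were called, against 0% of all probes in either direction (limma, 0 called of 16981, and 968 at an unadjusted p under 0.05). At 24 h 0 of 9 were called, against 0.0177% of all probes higher and 0.0412% lower. At 48 h 3 of 9 were higher and 1 was lower with embelin, against 18.6% and 18.3% of all probes, and the lower one was Erbb3, which was tested only because the DMSO group at 48 h detected it. The median embelin difference at 48 h was 0.37 over the 9 member probes and 0.00 over all probes. Of the 9 probes 3 measure Egfr, and this median is the value of 1 of them, ILMN_2693922. By gene, the fitted differences were above 0 for Areg (0.85), Egfr and Errfi1 (2.34). They were below 0 for Hbegf (-0.26), Btc (-0.08), Erbb2 (-0.30) and Erbb3 (-0.46), with Btc and Erbb3 near background. So no shift of the members as a group is read from the median.

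In embelin cells from growth medium to 24 h, 5 member probes rose and 2 fell, against 26.5% and 29.2% of all probes. To 48 h 7 rose and 2 fell, against 29.9% and 31.5%, and without embelin replicate 2 in growth medium 6 rose and 2 fell. The 7 include Erbb3, which was below background in both groups compared. The falling probes at both times include Btc, which was tested only because the growth-medium groups detected it. From 24 h to 48 h 3 rose and 0 fell, against 12.6% and 13.1%. Each count includes 3 probes of the same gene, Egfr. Of the tests on whether the embelin effect differed between stages, 24 h against growth medium called 0 of 9 members and 0% of all probes (1205 at an unadjusted p under 0.05). The effect at 48 h differed from that in growth medium for 3 of 9 against 21.8%, and from that at 24 h for 2 of 9 against 12.5%.

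The split between higher and lower calls over all probes depended on scaling. Under scaling to the array median in place of quantile normalization, 3122 probes rose and 6465 fell from growth medium to 24 h in embelin cells, against 4508 and 4955. From growth medium to 48 h the split was 3784 to 6391 against 5069 to 5356, and for embelin against DMSO at 48 h it was 3283 to 1984 against 3153 to 3105. The median of all probes under that scaling was -0.22 from growth medium to 24 h and -0.17 to 48 h. No called member probe changed direction under it.

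Other genes of the pathway were counted in 5 lists. At 48 h the counts below stand against 18.6% of all probes higher and 18.3% lower, and nothing particular to a list is read from them. Over all lists 0 probes were called between embelin and DMSO cells in growth medium and at 24 h. Of the other EGF-family ligands and ERBB4, 2 of 7 genes were tested: Epgn, which encodes epigen, was lower with embelin at 48 h by at least 1.10-fold (fitted difference -0.50, adjusted p = 0.0346), and Nrg1, a ligand of ERBB3 and ERBB4, differed by 0.21 (adjusted p = 0.259). Epgn, like Erbb3, was tested only because the DMSO group at 48 h detected it, so its value is a description. The Epgn call was lost without background correction (0.0735) and, among arrays, without DMSO replicate 2 at 48 h (0.199) or embelin replicate 1 at 48 h (0.254). Of 8 probes of ligand-shedding genes, 4 were higher and 1 was lower with embelin at 48 h (all probes, 18.6% and 18.3%). Timp3, an inhibitor of metalloproteases, was higher by 1.01 (adjusted p = 0.000142), and the protease gene Adam9 by 0.71 (adjusted p = 0.000327). Adam12, a protease gene tied to myoblast fusion, was lower (log2 difference -1.56, adjusted p = 2.66e-05). The count of higher probes was 2 without DMSO replicate 2 or embelin replicate 2 at 48 h.

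Among adaptors and the RAS and ERK cascade, 5 of 36 probes were higher and 2 were lower with embelin at 48 h (all probes, 18.6% and 18.3%). The higher count was 3 without replicate 2 of DMSO or of embelin at 48 h, and 8 without either embelin array in growth medium. The lower count was 1 without any 1 of the arrays of DMSO in growth medium, embelin at 24 h or embelin at 48 h, or without DMSO replicate 2 at 48 h. Pik3r1, a regulatory subunit of phosphoinositide 3-kinase, was higher by 0.84 (adjusted p = 0.000999), and the adaptor gene Shc1 by 0.35 (adjusted p = 0.0173). The Shc1 call was lost under 75th percentile scaling (0.0983) and, among arrays, without DMSO replicate 2 (0.0978) or embelin replicate 2 at 48 h (0.113). The median difference of this list was 0.01, against 0.00 over all probes.

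Among negative-feedback genes other than Errfi1, 8 of 19 probes were higher and 2 were lower with embelin at 48 h (all probes, 18.6% and 18.3%). Socs3, an inhibitor of cytokine and receptor kinase signalling, was higher by 2.36 (SE 0.19, adjusted p = 1.02e-05), and the phosphatase gene Dusp1 by 1.86 (adjusted p = 0.000109). Dusp6, whose product dephosphorylates ERK, was lower (log2 difference -0.60, adjusted p = 0.00214). The count of higher probes was 4 without DMSO replicate 2 and 5 without either embelin replicate at 48 h, and that of lower probes was 1 without DMSO replicate 1 at 48 h.

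Among transcripts induced by ERK, 11 of 21 probes were higher and 6 were lower with embelin at 48 h (all probes, 18.6% and 18.3%), so calls fell on both sides. Ier3, an early-response gene, was higher by 2.54 (SE 0.14, adjusted p = 1.57e-06), and Jun, a subunit of AP-1, by 1.36 (adjusted p = 0.000104). Egr3 and Etv5, transcription factor genes, were lower (log2 differences -1.45 and -1.08, adjusted p = 7.63e-05 and 0.000581). The count of higher probes was 7 without DMSO replicate 2 or without either embelin replicate at 48 h, and that of lower probes was 3 without embelin replicate 2. The list medians were 0.39 for shedding, 0.23 for feedback and 0.35 for ERK-induced transcripts, against 0.00 over all probes.

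**Figure D4:**
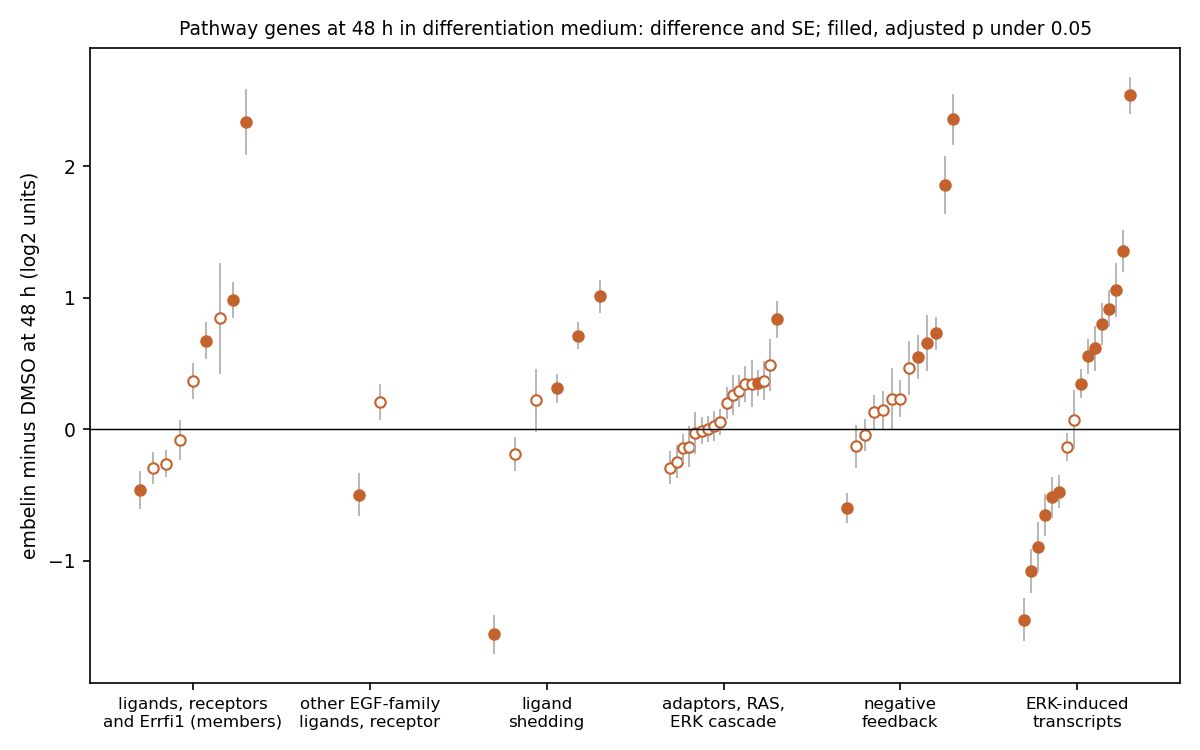
Difference between embelin and DMSO cells at 48 h in differentiation medium, in log2 units with standard errors, for the 9 member probes and for the genes of 5 pathway lists, 1 probe per gene in the lists (the one with the highest mean); filled symbols passed an adjusted p under 0.05. Errfi1 (2.34), Socs3 (2.36) and Ier3 (2.54) are the highest points of their columns, and the ERK-induced transcripts include called genes on both sides of 0.

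In embelin cells the pathway lists also held calls in both directions with time. From growth medium to 48 h, where 29.9% of all probes rose and 31.5% fell, 6 of 19 feedback probes rose and 8 fell: Socs3 rose by 2.80 (adjusted p = 6.76e-07) and Lrig1, a receptor inhibitor, by 2.31 (adjusted p = 4.33e-06), while Dusp4 and Dusp6 fell by 1.70 and 1.19. Of 21 ERK-induced probes 9 rose and 10 fell, with Ier3 and Fos higher by 2.52 and 2.37 and Plaur and Etv4 lower, at log2 differences of -3.26 and -3.07. Of 36 cascade probes 14 rose and 5 fell, with 4 rising under median scaling, 9 without embelin replicate 2 in growth medium or at 48 h, and 3 falling without embelin replicate 1 at 48 h, and Pik3r1 rose by 0.83 (adjusted p = 0.000421). Of 8 shedding probes 4 rose and 0 fell, but 0 rose under median scaling and 1 fell without embelin replicate 2 in growth medium. Adam17, the main protease of Areg, rose by 0.51 (adjusted p = 0.00238), a call lost under median scaling (0.28, adjusted p = 0.137).

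From growth medium to 24 h, where 26.5% of all probes rose and 29.2% fell, the 8 shedding probes split 3 to 3, the 36 cascade probes 5 to 6, the 19 feedback probes 7 to 4 and the 21 ERK-induced probes 10 to 7, rising against falling. The cascade count of rising probes was 3 without embelin replicate 1 in growth medium. Lrig1 rose by 2.46 by then and Egr3 by 1.65 (adjusted p = 7.76e-06 and 1.63e-05), while Plaur and Etv4 fell by 2.65 and 2.06. From 24 h to 48 h, where 12.6% of all probes rose and 13.1% fell, the same lists split 4 to 1, 4 to 2, 3 to 5 and 6 to 7. Ier3 rose by 2.00, Timp3 by 1.84 and Socs3 by 1.24 (adjusted p = 4.87e-06, 3.85e-06 and 0.00106). Adam12, Dusp6 and Etv4 fell, at log2 differences of -1.19, -1.18 and -1.01 (adjusted p = 0.000247, 4.35e-05 and 0.00108). The Timp3 rise followed a fall from growth medium to 24 h (log2 difference -1.35, adjusted p = 1.21e-05).

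Genes with the most similar patterns over the 12 arrays were found by Pearson's r, as a description in which all points share the same 12 arrays. Those nearest to Areg were Cdsn (0.993), Esd (0.992), Abcb1b (0.991), Srxn1 (0.990) and Arap2 (0.989). Errfi1 was nearest to Socs3 (0.989), Slc39a13 (0.985) and Mmp13 (0.984), of which Socs3 also stands in the feedback list. Egfr was nearest to A4galt (0.982), Spats2l (0.982) and App (0.981). Hbegf was nearest to Thnsl1 (0.975) and Erbb2 to Tekt5 (0.986), with the muscle gene Tcap (0.985) among the next. Btc was nearest to Hgsnat (0.992), and Erbb3, near background, to Nmrk2 (0.971).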

How the data were processed

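RNA was measured in 12 samples of C2C12 cells, 2 in each of 6 groups taken from the sample descriptions. The member genes and the pathway lists were chosen with earlier results of these data known. Per the file headers, the authors deposited intensity values as mean bead signals per probe with no normalization, together with the standard deviation and number of beads (median 42 to 43). The deposited detection value is a fraction, and subtracting it from 1 gave the detection p against the negative controls. The authors' deposited series matrix holds log2 values. It was found to equal the log2 signal minus the array's 75th percentile and the probe's median for 100% of values within 0.006, and its columns have medians of -0.14 to 0.09. The software was GenomeStudio 2010.2 per the submitters' processing notes and 1.8.0 per the file headers. The labels' protocols name an Agilent labelling kit, while the file holds Illumina probes.

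Signals were background-corrected, quantile normalized and log2-transformed with neqc of limma 3.58.1 in R 4.3.3 (offset 16). The tests took in a probe if some group had it detected (p under 0.01) on each of its 2 arrays. One model with 6 group means gave 9 tested comparisons, with p-values from limma adjusted by Benjamini-Hochberg over 16981 probes. A call is an adjusted p under 0.05. The fit had 6 residual degrees of freedom and its precision is limited by 2 arrays per group. Symbols were updated through the RefSeq table of GRCm38.p6, by symbol for 27760 probes and by synonym for 7994, and 9527 kept the name in the file. Up to 2 genes each way are named per pathway list and comparison, those called with the largest difference and no overlap between groups, using the probe with the highest mean. One gene that this rule names is not reported here. Likeness was ranked over probes with a standard deviation of at least 0.5. Promoter windows come from RefSeq, and figures were drawn with matplotlib 3.10.9. The fit was tested on simulated data. The processing was varied in 12 ways and 12 arrays were left out in turn.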

Additional observations from a re-analysis of the deposited data

Results flagged for a closer look

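The embelin effect differed between stages, by a test of the difference itself in the limma fit, for 3 member probes, of Errfi1 and Egfr. Over all probes the effect at 48 h differed from that in growth medium for 21.8% and from that at 24 h for 12.5%. The brightest Egfr probe, ILMN_2693922, was not called in either test (0.12 and 0.08, adjusted p = 0.704 and 0.838). For Errfi1 the effect at 48 h exceeded that in growth medium by 1.92 log2 units (adjusted p = 0.00338) and that at 24 h by 1.99 (adjusted p = 0.00476). The Errfi1 probe rested on 22 beads on 1 of the 2 DMSO arrays at 48 h. For the Egfr probe ILMN_3128725 the effect at 48 h exceeded that in growth medium by 0.70 (adjusted p = 0.0235) and that at 24 h by 0.65 (adjusted p = 0.0475), the latter a call lost in 16 of 23 other settings, among them the replicate block (0.0524). For the Egfr probe ILMN_3052260 it exceeded that in growth medium by 0.67 (adjusted p = 0.0312). The 2 Egfr calls against growth medium were lost without any 1 of 4 arrays (DMSO replicate 2 or embelin replicate 1 in growth medium, or replicate 2 of either treatment at 48 h), with adjusted p up to 0.118. At 48 h the summed signal of the myotube markers also differed between treatments, 38786.8 to 42471.6 with DMSO against 13886.6 to 18853.1 with embelin, and its part in these differences was not tested.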

How the results depend on the processing

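Of 1899 values of 81 member-probe results recomputed under the 24 alternatives, 1828 kept their side of the threshold and any called direction, 53 lost a call, 18 gained one and 0 called values reversed. A change of sign between values that were not called was not counted as a reversal. The count of all probes called at 24 h, 10 in the main setting, was 46 without background correction, 0 under median or 75th percentile scaling, without the detection filter, with a detection p under 0.05, with the replicate block or with only the compared arrays, 18 on the series matrix, 40 with an offset of 50, 16 for probes detected on all arrays, 6 with 1 probe per gene and 55 with a trended, robust prior. The trended prior also called 7 probes for the effect at 24 h against growth medium, in place of 0. With 1 probe per gene 2 members were called at 48 h in place of 4, and 1 in place of 3 for the effect at 48 h against growth medium. That setting kept only the brightest Egfr probe, ILMN_2693922, which was not called, and dropped the 2 called Egfr probes. For the effect at 48 h against 24 h, 1 member was called in place of 2 under median or 75th percentile scaling, the series matrix, no filter, a detection p under 0.05, 1 probe per gene, the trended prior, the replicate block and only the compared arrays, and median scaling called 1396 of all probes in place of 2118; where no cause is named, the cause was not tested.

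Leaving out 1 array at a time, the count of all probes called ranged from 0 to 404 in growth medium and from 0 to 283 for the effect at 24 h against growth medium, both highest without embelin replicate 1 in growth medium, which leaves the array that stood apart alone in its group, assumed to vary like the others. It ranged from 0 to 13 at 24 h, from 3985 to 6799 at 48 h, from 2449 to 4935 from 24 h to 48 h in embelin cells, from 2260 to 3618 for the effect at 48 h against growth medium and from 1061 to 2671 for that against 24 h. Member calls ranged from 1 to 4 from 24 h to 48 h, from 1 to 3 for the effect at 48 h against growth medium and from 1 to 2 for that against 24 h. Deviations from group means correlated between same-numbered arrays at -0.02 to 0.24, over 0.1 in 7 of 15 pairs, among them all 6 pairs of groups in differentiation medium (0.14 to 0.24). No label says that the numbers mark a shared culture or day and not every pair passed 0.1, so the numbers were not taken to pair the samples, and the replicate block changed no other member call than that of Egfr ILMN_3128725 named above (adjusted p = 0.0524). Erbb3, Btc in differentiation medium, Ereg and Tgfa lay at or below background, which limits what their signals can show.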
